A study of Mus musculus with 6 samples.

Results

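The nucleophosmin family consists of the knocked-out gene Npm1 and its paralogs Npm2 and Npm3, and it is described here together with Ncl, the gene of the nucleolar protein nucleolin. The 4 genes were chosen by name as the target of the knockout, its relatives and its nucleolar partner, and they are 4 of 54532 rows of the deposited expression table. All 4 were found, and 3 of them (Npm1, Npm3 and Ncl) passed the filter on low values. RNA came from MC38 tumours, a mouse colon cancer line that had been grown under the skin of wild type C57BL/6 mice, after CD45-positive cells had been taken out with microbeads. The knockout was made by CRISPR/Cas9, and the labels do not give the guide, the edited position or whether the cells were 1 clone. The hosts of both groups were wild type, so host cells without CD45 that remained in the suspension carry an intact Npm1. There were 3 libraries of Npm1 KO tumours and 3 libraries of WT tumours. Nothing in the labels ties the replicates to separate mice, so p-values describe the scatter among these libraries, which could be technical in origin.

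Nucleophosmin is an abundant protein of the granular component of the nucleolus, the outer zone where ribosomal subunits are assembled. It forms pentamers, binds histones and basic proteins such as ARF, and shuttles between nucleolus and cytoplasm. Nucleolin is an RNA-binding protein of the dense fibrillar component, where ribosomal RNA is first processed, and it also takes part in transcription of ribosomal DNA and in binding of messenger RNA. Npm3 encodes a nucleoplasmin family member that can associate with nucleophosmin, and Npm2 encodes the nucleoplasmin of oocytes, a chaperone that acts on sperm chromatin after fertilisation.

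Values were FPKM, fragment numbers divided by gene length and by a total for each library. The total implied by the values was not the number of fragments the library held. It was 18985624 for WT replicate 1, which held 18255574 fragments, and 16244426 for WT replicate 3, which held 16917778. The libraries held 16917778 to 18662688 fragments each. Markers checked the labelled cell type: 9 epithelial markers summed to 1.59 to 2.37 FPKM in Npm1 KO libraries and 2.20 to 2.76 FPKM in WT libraries, so a colon epithelial identity was not visible in them. Leukocyte markers summed to 2.47 to 3.90 FPKM in KO and 2.24 to 6.91 FPKM in WT, with Cd3e at 0 in every library. Fibroblast markers summed to 1544 to 1729 FPKM in KO and 1165 to 1742 FPKM in WT. Most of that sum was Col3a1, at a mean of 1178 FPKM, so it says little about the other markers. Of 9 tested, 3 were called higher and 1 lower in KO (limma adjusted p under 0.05). Dcn, Dpt and Pi16 were higher, with ratios of means, KO over WT, of 2.57, 4.78 and 3.56. Col1a1 was lower, with a ratio of 0.269. Pericyte and smooth muscle markers summed to 31.4 to 38.1 FPKM in KO and 51.1 to 66.9 FPKM in WT, with 3 of 4 tested called lower. Of all genes tested, 5.91% were called higher and 8.3% lower. With the length and GC trend described below removed, 2 fibroblast markers were still called higher, and no fibroblast or pericyte and smooth muscle marker was called lower by limma. Endothelial markers summed to 0.902 to 1.82 FPKM in KO and 1.76 to 5.43 FPKM in WT, and red blood cell markers to 12.6 to 81.1 FPKM in KO and 1.46 to 22.4 FPKM in WT. The part of these cell types in the values below was not tested, and in bulk RNA fewer cells of a type and less RNA per cell cannot be told apart.

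Of the 3 tested genes only Ncl changed past the threshold, and it was higher in Npm1 KO. Genes were tested on log2(FPKM + 1) with limma over 11287 genes, and a gene was called at a Benjamini-Hochberg adjusted p under 0.05. By that rule 14.2% of all genes tested were called, 5.91% as higher and 8.3% as lower in Npm1 KO. Npm3 was higher in every KO library than in any WT library, as was so for 16.0% of all genes tested, but was not called. Npm1 itself was lower on average with groups that overlapped. Npm2 was at the detection floor.

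Npm1 (ENSMUSG00000057113, GRCm38 chr11:33152287-33163206, minus strand, 11 coding exons) was measured at 190.7, 158.7 and 128.2 FPKM in the Npm1 KO libraries, against 234.1, 169.1 and 195.4 FPKM in the WT libraries. The highest KO library lay above the lowest WT library, so the groups overlapped. Those values rest on 9283, 7457 and 6413 fragments in KO and on 11846, 7769 and 8458 fragments in WT, and counting error is therefore small beside the spread between libraries. The mean was 159 ± 31.3 FPKM in KO and 200 ± 32.7 FPKM in WT (SD, n = 3 each). On the log2 scale the difference was -0.33 (SE 0.197, interval -0.77 to 0.11 at 95%), with a limma adjusted p of 0.268. An exact two-sided permutation test gave p = 0.2, where 0.1 is the smallest value that 3 libraries against 3 can give. Npm1 stayed among the most abundant transcripts: its mean level over the 6 libraries ranked 281 of the 11287 genes tested. The transcript level therefore did not separate the groups that the labels name.

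**Figure D1:**
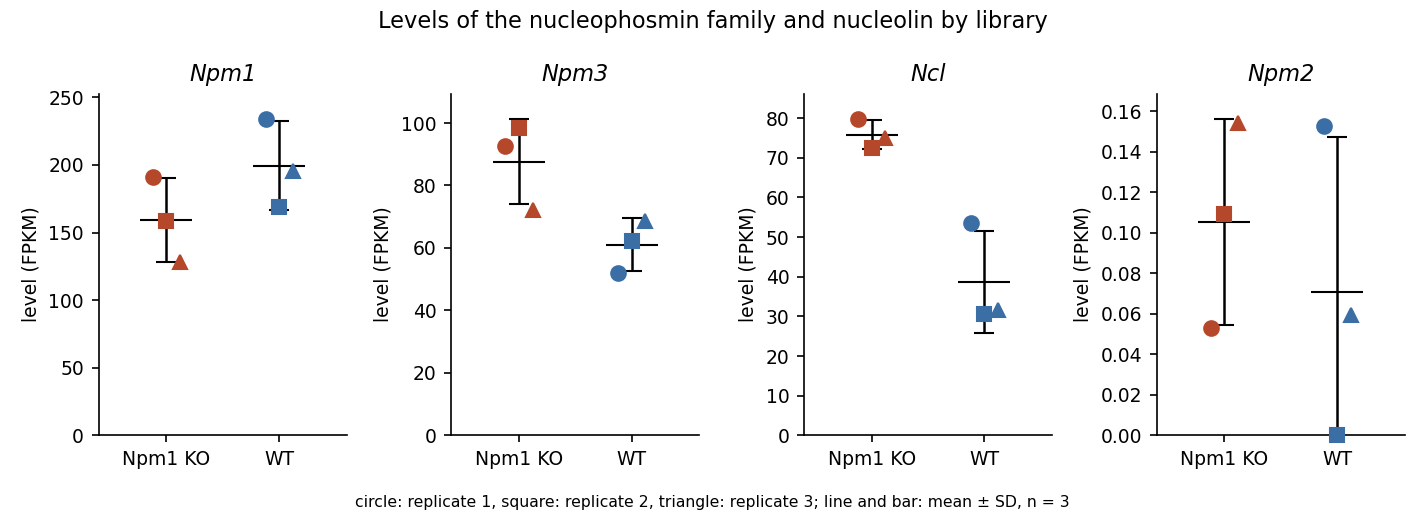
Level of each gene in FPKM (vertical axes, each starting at 0) in the 3 Npm1 KO libraries and the 3 WT libraries. Points are libraries and the line and bar are the mean ± SD. The KO and WT points of Ncl and Npm3 stand apart, those of Npm1 overlap, and Npm2 stays at or below 0.154 FPKM everywhere. The groups did not overlap in 35.6% of all genes tested, in 16.0% with KO higher.

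Npm1 has many processed copies in the mouse genome, DNA copies of its spliced messenger RNA. Of the rows of the table, 8 processed pseudogenes matched the Npm1 coding sequence over at least 150 aligned bases with at least 90% identity, and 4 of them had a mean of at least 1 FPKM. Together the 8 held fragments equal to 5.13% of those of Npm1 itself. The sources used here do not say how fragments that fit several genes were handled, so fragments of the copies and of Npm1 cannot be told apart where the sequences are identical. A stretch of the Npm1 coding sequence (coding bases 173 to 459, exons 3 to 5) is shown with the same stretch of the copies Gm9118 and Gm6477 to let the closeness be seen. The sequences come from the GENCODE vM21 transcripts, and capitals mark bases at which a copy differs from Npm1.
Npm1: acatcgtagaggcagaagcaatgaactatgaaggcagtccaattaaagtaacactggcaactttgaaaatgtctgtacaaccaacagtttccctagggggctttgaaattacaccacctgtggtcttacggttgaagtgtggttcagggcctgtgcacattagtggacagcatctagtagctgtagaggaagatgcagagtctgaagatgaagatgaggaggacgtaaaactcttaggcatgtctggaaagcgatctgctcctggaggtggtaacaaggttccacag
Gm9118: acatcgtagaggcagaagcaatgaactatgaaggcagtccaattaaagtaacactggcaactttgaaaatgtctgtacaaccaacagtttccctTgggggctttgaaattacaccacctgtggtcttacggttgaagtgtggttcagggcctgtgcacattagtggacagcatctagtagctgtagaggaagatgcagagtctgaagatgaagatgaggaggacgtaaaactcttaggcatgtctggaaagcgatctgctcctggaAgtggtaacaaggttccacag
Gm6477: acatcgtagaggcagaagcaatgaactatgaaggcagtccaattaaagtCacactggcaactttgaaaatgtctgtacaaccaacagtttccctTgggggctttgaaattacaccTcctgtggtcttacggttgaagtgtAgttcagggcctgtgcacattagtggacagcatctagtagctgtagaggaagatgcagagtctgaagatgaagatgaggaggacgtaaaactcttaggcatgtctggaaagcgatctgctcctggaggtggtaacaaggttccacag
In this window of 287 bases Gm9118 differs from Npm1 at 2 positions and Gm6477 at 4. The longest run that Gm6477 shares with Npm1 without a difference is 146 bases, and Gm9118 shares a run of 171 bases.

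Gm6477, a copy on chr10:39198538-39199301 (plus strand, 96.1% identical over 768 aligned bases), was lower in Npm1 KO, and it was singled out after its values were seen. It held 30, 28 and 16 fragments in the KO libraries, against 93, 62 and 79 fragments in the WT libraries. Every KO library was below every WT library, as was so for 19.6% of all genes tested. As levels these were 1.78 ± 0.578 FPKM in KO and 5.83 ± 0.972 FPKM in WT (SD, n = 3 each), a log2 change of -1.31 (SE 0.196, limma adjusted p = 0.0111). The limma call was lost without WT replicate 3 (-1.25, adjusted p = 0.0584) and with no filter on low values (adjusted p = 0.0851). Set against Npm1 within each library, Gm6477 stood at 1.13%, 1.31% and 0.870% of the Npm1 FPKM in KO, against 2.74%, 2.78% and 3.26% in WT. These shares did not overlap either, and the exact permutation p of 0.1 was the smallest possible. No background was computed for such shares. In the other 3 expressed copies the groups overlapped. Gm14681 (chrX:66778442-66778852, minus strand), the copy with the most fragments, aligns to exons 6 to 11 and held 220, 188 and 138 fragments in KO, against 253, 162 and 172 in WT. Gm9118 (chr10:56497341-56498094, plus strand) aligns to exons 1 to 9 and held 203, 168 and 119 fragments in KO, against 238, 157 and 185 in WT. With the length and GC trend removed, Gm9118 was called lower as well (log2 change -0.71, limma adjusted p = 0.0456), as was Npm1. Gm5611 (chr9:17030045-17030896, plus strand) spans exons 1 to 11 and held 27, 19 and 12 fragments in KO, against 25, 21 and 11 in WT. The order of the libraries in Gm14681 and Gm9118 was close to that of Npm1: in both, KO replicate 3 was lowest and WT replicate 1 highest. Adding the fragments of all 8 copies to Npm1 left the Npm1 difference uncalled, with a limma adjusted p of 0.268.

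**Figure D2:**
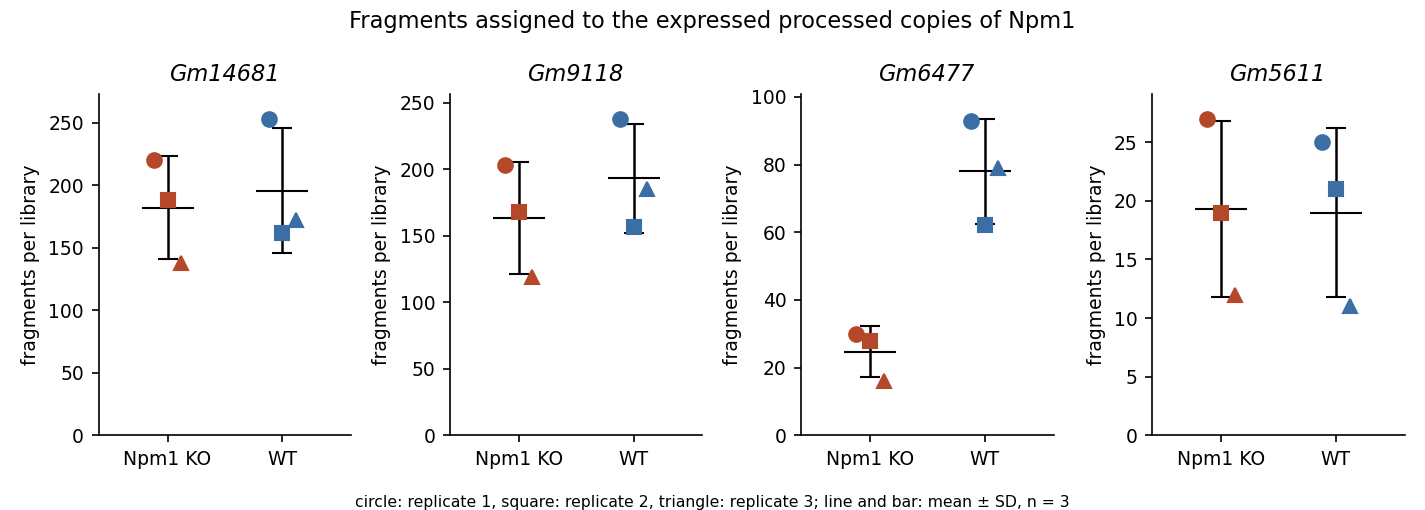
Fragments per library (vertical axes, each starting at 0) assigned to the 4 processed copies of Npm1 with a mean of at least 1 FPKM, in Npm1 KO and WT libraries. Points are libraries and the line and bar are the mean ± SD. Only in Gm6477 do all KO points, 16 to 30 fragments, lie below all WT points, 62 to 93 fragments. The KO levels were all below the WT levels in 19.6% of all genes tested.

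Npm3 (ENSMUSG00000056209, chr19:45747734-45749591, minus strand, 5 coding exons) shares 58.0% of aligned coding bases with Npm1, far from the near-copy range. It was measured at 92.5, 98.3 and 72.2 FPKM in Npm1 KO libraries, against 52.0, 62.3 and 68.7 FPKM in WT libraries. The lowest KO library, replicate 3, was close to the highest WT library, but the groups did not overlap, as was so for 35.6% of all genes tested, in 16.0% with KO higher and in 19.6% with KO lower. The mean was 87.7 ± 13.7 FPKM in KO and 61.0 ± 8.43 FPKM in WT (SD, n = 3 each), a ratio of means of 1.44. The log2 change was 0.51 (SE 0.174, interval 0.12 to 0.90), and it missed the threshold with a limma adjusted p of 0.0732. Whether Npm3 was called turned on the setting. Without KO replicate 3 the change was 0.64 with a limma adjusted p of 0.0247, and with the length and GC trend described below removed it was 0.24 with a limma adjusted p of 0.138. One processed copy, Npm3-ps1, is 99.0% identical to Npm3 and held 10, 16 and 6 fragments in KO, against 6, 7 and 11 in WT.

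Ncl (ENSMUSG00000026234, chr1:86344719-86359400, minus strand, 14 coding exons) rose in Npm1 KO. It was measured at 79.9, 72.6 and 75.0 FPKM in KO libraries, against 53.6, 30.7 and 31.7 FPKM in WT libraries. The KO libraries lay close together, and WT replicate 1 stood between them and the other WT libraries. Every KO library was above every WT library, as was so for 16.0% of all genes tested. The mean was 75.8 ± 3.69 FPKM in KO and 38.7 ± 13.0 FPKM in WT (SD, n = 3 each), a ratio of means of 1.96. The log2 change was 1.0 (SE 0.209, interval 0.53 to 1.46), with a limma adjusted p of 0.0198. Among all genes tested this was the rise of rank 102. No near copy of the Ncl coding sequence was found in the table, and its values rest on 13046 to 14857 fragments in KO and 5248 to 10376 fragments in WT. The direction held when each library was left out in turn, but the call did not: the limma adjusted p was 0.0854 without WT replicate 3, 0.0808 without KO replicate 1 and 0.0553 without KO replicate 2. Ncl introns host small nucleolar RNAs, which guide chemical modification of ribosomal RNA and lack a poly-A tail. In these poly-A libraries Snord82, in intron 5, had at most 1 fragment in any library, and Snora75, in intron 12, had 0 in all 6, so neither could be measured.

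Promoters of Ncl and Npm3 are shown for the regulatory sequence around their starts. They come from the RefSeq table of GRCm38.p6, which held these 2 of the 4 genes, and cover 250 bases before to 50 after each start. Capitals mark the GC box GGGCGG, read on both strands.
Ncl chr1:86359406-86359705, minus strand: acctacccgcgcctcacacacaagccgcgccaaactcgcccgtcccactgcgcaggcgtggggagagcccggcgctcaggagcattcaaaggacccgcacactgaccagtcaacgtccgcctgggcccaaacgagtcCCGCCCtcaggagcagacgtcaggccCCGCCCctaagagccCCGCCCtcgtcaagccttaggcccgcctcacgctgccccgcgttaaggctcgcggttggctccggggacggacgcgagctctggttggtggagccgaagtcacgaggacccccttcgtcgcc
Npm3 chr19:45749516-45749815, minus strand: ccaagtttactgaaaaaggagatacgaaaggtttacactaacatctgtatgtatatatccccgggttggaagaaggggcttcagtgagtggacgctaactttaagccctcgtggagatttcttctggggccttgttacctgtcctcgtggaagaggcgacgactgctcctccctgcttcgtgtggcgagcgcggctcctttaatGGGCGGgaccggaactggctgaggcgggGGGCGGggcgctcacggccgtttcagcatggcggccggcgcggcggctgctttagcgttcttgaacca
The Ncl window held 3 GC boxes and the Npm3 window 2, and 35.7% of 32851 promoters of the same length held at least 1. GC content was 69.3% for Ncl and 57.7% for Npm3, against a median of 52.7% over all promoters. Neither window held the E-box CACGTG, the box CCAAT or the ETS motif CCGGAAGT, which were present in 7.15%, 37.4% and 3.89% of promoters on either strand, so no GC box overlapped another motif searched.

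Npm2 (ENSMUSG00000047911, chr14:70647302-70659244, minus strand) was at the edge of detection. It had 1, 2 and 3 fragments in Npm1 KO libraries, against 3, 0 and 1 fragments in WT libraries. No library exceeded the floor of 3 fragments, which corresponds to 0.153 to 0.178 FPKM at these depths, so no fold change was computed. A difference in Npm2 was not detectable at this depth, and the exact two-sided permutation p was 0.6.

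Set against Npm1 within the same library, which removes any scaling of whole libraries, both Ncl and Npm3 were higher in Npm1 KO. The FPKM ratio of Ncl to Npm1 was 0.419, 0.458 and 0.585 in KO libraries, against 0.229, 0.181 and 0.162 in WT libraries. All KO ratios exceeded all WT ratios, and the mean was 0.487 ± 0.0871 in KO and 0.191 ± 0.0344 in WT (SD, n = 3 each). The log2 ratio differed by 1.35, a 2.55-fold difference, with an exact permutation p of 0.1, the smallest possible. The FPKM ratio of Npm3 to Npm1 was 0.485, 0.619 and 0.564 in KO libraries, against 0.222, 0.369 and 0.352 in WT libraries. Here too the groups stood apart, and the log2 ratio differed by 0.85, a 1.8-fold difference, again with an exact permutation p of 0.1. Between Ncl and Npm3 the groups overlapped: the log2 ratio of Ncl to Npm3 differed by 0.50 with an exact permutation p of 0.3. These 3 ratios share their genes and are not independent of each other or of the single-gene values. How often ratios of other genes separate the groups was not computed. Single-gene levels did not overlap in 35.6% of all genes tested.

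**Figure D3:**
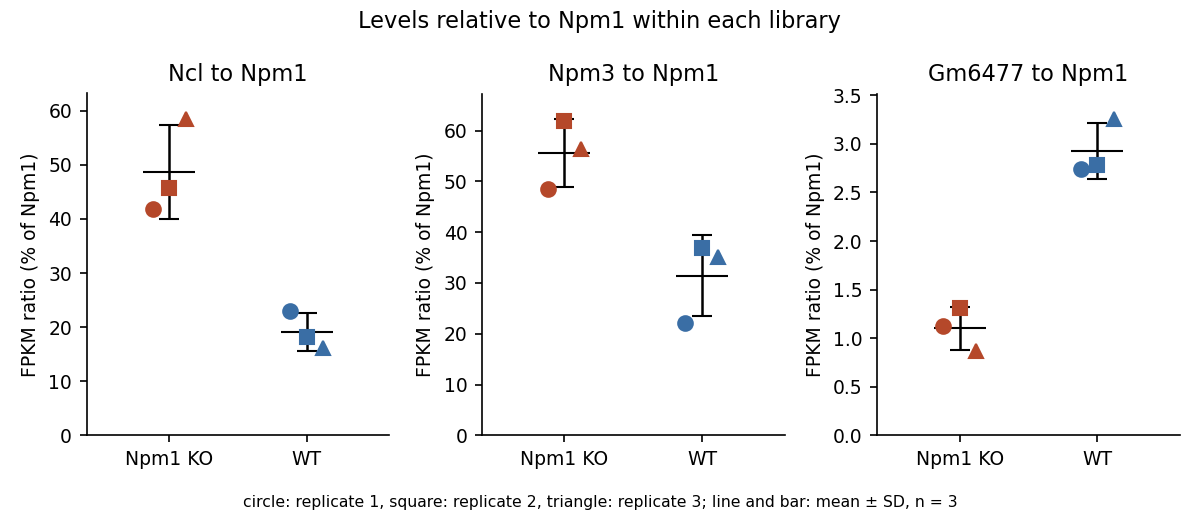
FPKM of Ncl, Npm3 and the copy Gm6477 as a percent of the Npm1 FPKM of the same library (vertical axes, each starting at 0), in Npm1 KO and WT libraries. Points are libraries and the line and bar are the mean ± SD. KO and WT points do not overlap in any panel: Ncl and Npm3 are higher in KO and Gm6477 is lower. How often this holds for ratios of other genes was not computed.

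The summed level of the family, Npm1 with Npm2 and Npm3, did not differ beyond its spread, while Npm3 made up more of it in every Npm1 KO library. The sum was 283, 257 and 201 FPKM in Npm1 KO libraries, against 286, 231 and 264 FPKM in WT libraries. The groups overlapped, with means of 247 ± 42.3 FPKM in KO and 261 ± 27.6 FPKM in WT (SD, n = 3 each, exact permutation p = 0.6). Npm3 made up 32.7%, 38.2% and 36.0% of that sum in KO, against 18.2%, 26.9% and 26.0% in WT. Every KO share was above every WT share, and the exact permutation p of 0.1 was the smallest possible. With Npm2 near 0, this share is the Npm3 to Npm1 ratio on another scale. Its separation therefore follows from that ratio and is not a further result. How often shares of other genes separate the groups was not computed. Npm2 contributed almost nothing to the sum in any library.

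The order of the 4 levels depended on the length by which fragments were divided. With the exon length of the deposited table, Npm1 was highest, Npm3 and Ncl overlapped in both groups, and Npm2 was last. That length is 10188 bases for Ncl, since its annotation includes a long 3' end and transcripts that retain introns, while its coding sequence has 2121 bases. Per coding length, Ncl reached 364 ± 17.7 in KO and 186 ± 62.3 in WT, and Npm3 198 ± 30.9 in KO and 138 ± 19.1 in WT (FPKM with the coding length in place of the exon length, SD, n = 3 each). Npm1 stood at 484 ± 95.2 in KO and 607 ± 99.6 in WT on the same scale. Ncl was then above Npm3 in every KO library, whereas the WT libraries of these genes still overlapped. Changes between groups do not depend on this length.

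Change in these libraries followed transcript length and GC content. Spearman's rho across genes between a library's deviation and transcript length was -0.580, -0.547 and 0.282 in Npm1 KO libraries, against 0.565, 0.235 and 0.137 in WT libraries. With GC content it was -0.194, -0.131 and -0.508 in KO, against -0.151, 0.414 and 0.550 in WT. KO replicate 3 thus lay with the WT libraries for length and lowest for GC content. At the length and GC content of each gene, the trend amounted to a log2 difference of 0.41 for Npm1, 0.27 for Npm3 and -0.04 for Ncl when taken from the longest transcript, which has 8202 bases for Ncl. Taken from the coding sequence it was 0.39 for Npm1, 0.17 for Npm3 and 0.16 for Ncl, so its sign for Ncl depended on the length used. With the transcript trend subtracted, 2.8% of 11269 genes were called, 1.19% higher and 1.62% lower, and 2 of the 3 tested genes were among them, Ncl higher and Npm1 lower. The Ncl change was then 1.04 (SE 0.149, limma adjusted p = 0.0324) and the Npm1 change -0.74 (SE 0.128, limma adjusted p = 0.0411). The Npm1 call was lost without any one of the libraries except WT replicate 2, with limma adjusted p up to 0.137. For Ncl it was lost without KO replicate 1, KO replicate 2, WT replicate 1 or WT replicate 3, with limma adjusted p of 0.125, 0.131, 0.0507 and 0.125.

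**Figure D4:**
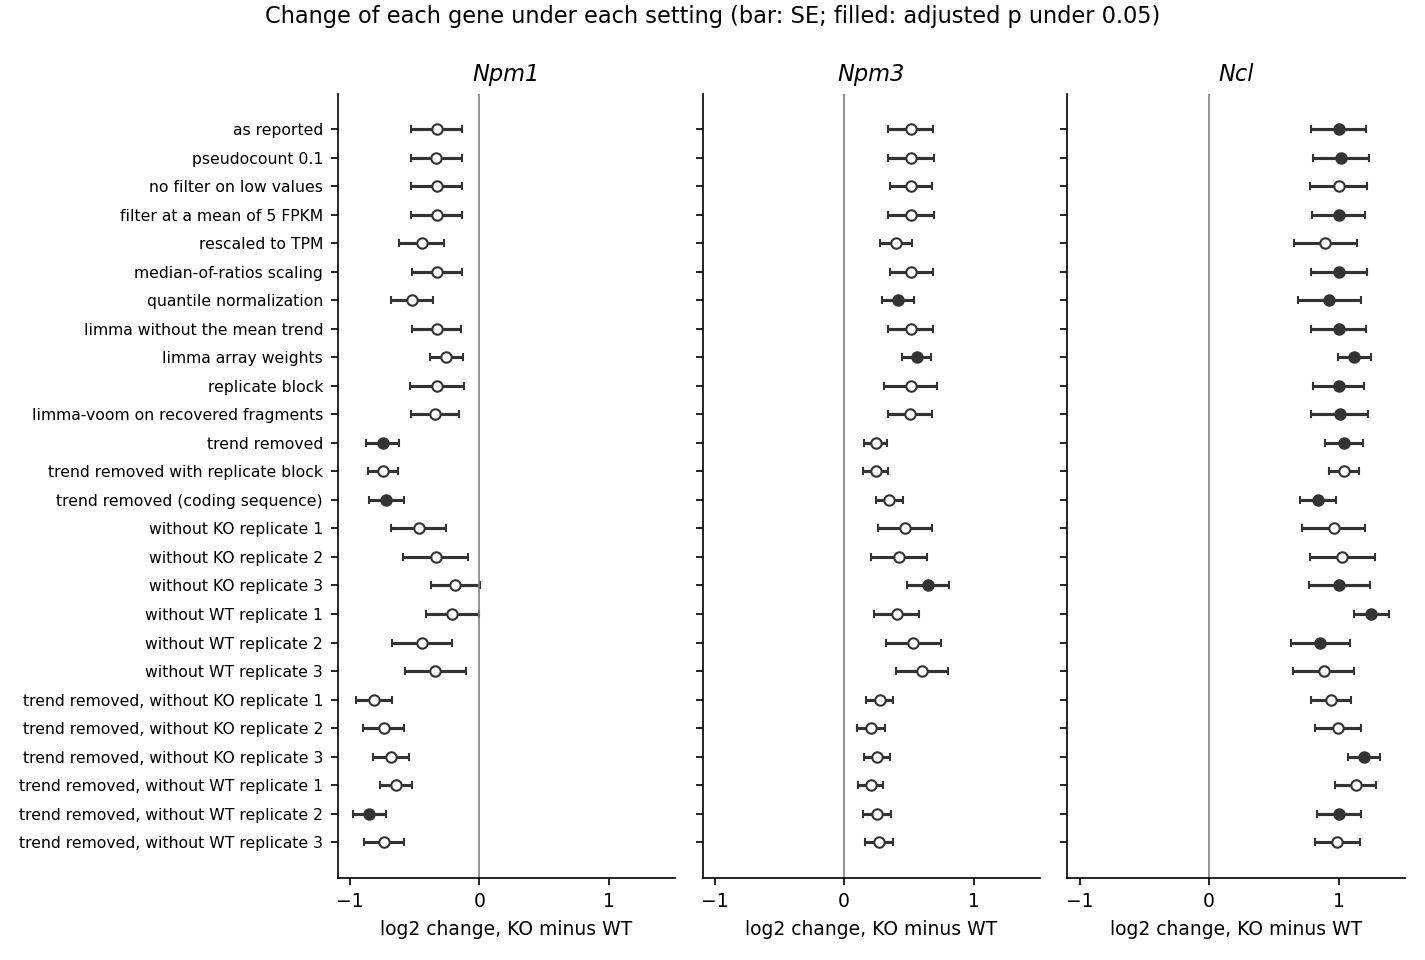
Log2 change, Npm1 KO minus WT (horizontal axes), of Npm1, Npm3 and Ncl under each processing setting (rows). Points are limma estimates, bars their SE, and filled points have an adjusted p under 0.05. Ncl lies at 0.84 or above in every setting shown, Npm3 is positive and Npm1 negative throughout, and Ncl is called in 16 of 26 settings.

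Genes of the nucleolus around nucleophosmin and nucleolin showed calls in both directions. Of 55 listed nucleolar genes, all tested, 4 rose and 8 fell in Npm1 KO, 21.8% of the list against 14.2% of all genes, and the median log2 change was 0.11 against 0.02 over all genes. In the granular component, where nucleophosmin resides, 1 of 22 genes rose and 4 fell. The gene that rose was Ebna1bp2, a factor of large subunit assembly (45.6 ± 5.30 FPKM in KO and 31.2 ± 1.33 FPKM in WT). Those that fell were Usp36, a nucleolar deubiquitinase (log2 change -0.96), Pelp1 (-0.78) and Nol9 (-0.63), which act with the rixosome in processing of ribosomal RNA, and Rrp1b (-0.65). In the dense fibrillar component, where nucleolin resides, 2 of 19 genes rose and 1 fell, with a list median of 0.31. Nop58, a core protein of box C/D small nucleolar particles, averaged 17.1 ± 1.03 FPKM in KO and 9.18 ± 3.25 FPKM in WT, and Nop10, of the box H/ACA particles, averaged 67.4 ± 14.7 FPKM in KO and 40.8 ± 6.24 FPKM in WT. Tcof1, the treacle protein of ribosomal DNA transcription, fell by 0.79 on the log2 scale. In the fibrillar centre, the site of RNA polymerase I, 1 of 14 genes rose and 3 fell. Taf1d, of the promoter selectivity factor, rose (0.80), while the polymerase subunits Polr1b (-0.69) and Polr1a (-0.58) and the initiation factor Rrn3 (-0.55) fell. All of these had a limma adjusted p under the threshold, from 0.0167 for Tcof1 to 0.0471 for Polr1a.

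With the length and GC trend removed, 4 of the 55 nucleolar genes were called, 7.27% against 2.8% of all genes. They were Nop58 and its partner Nop56 upward (log2 0.84 and 0.51) and Polr1b and Rrn3 downward (-0.50 and -0.59), with limma adjusted p from 0.0389 to 0.0469. The count of 12 as deposited depended on which library was left out. It was 0 without KO replicate 1, 1 without KO replicate 2, 5 without WT replicate 2 and 0 without WT replicate 3. Without KO replicate 3 it was 17, and without WT replicate 1 it stayed at 12. Over all 11287 genes the count of 1604 became 88, 209, 890, 7, 2805 and 1369 in that order. The losses were therefore not particular to the nucleolar list.

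**Figure D5:**
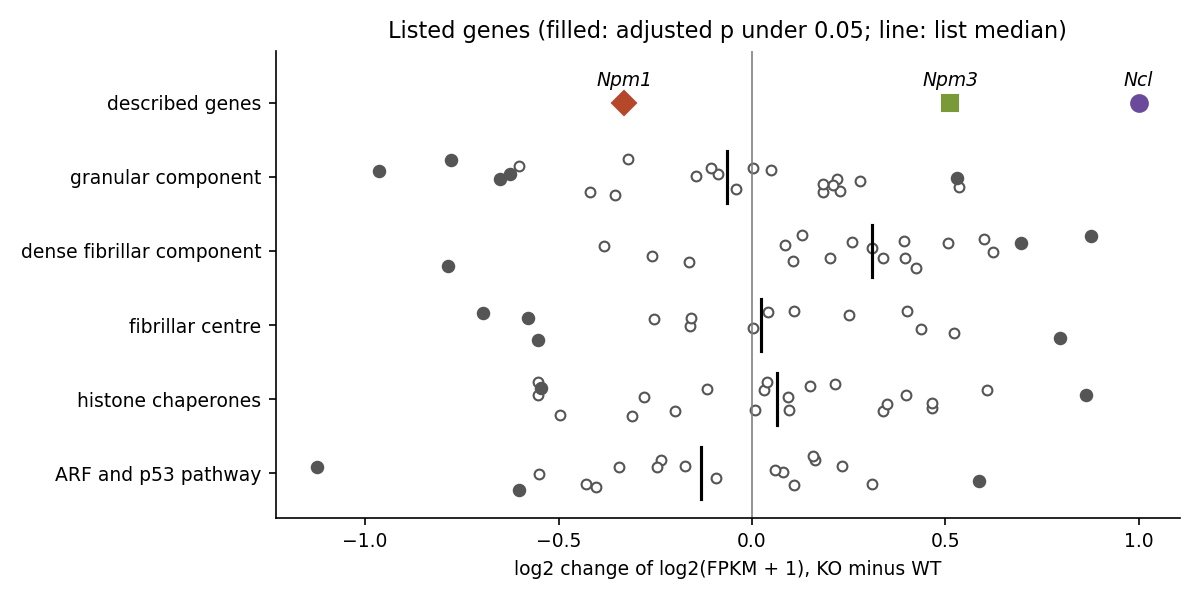
Log2 change, Npm1 KO minus WT (horizontal axis), of the 3 tested members and of each tested gene of the listed groups (rows). Filled circles have a limma adjusted p under 0.05 and the vertical line is the list median. Ncl, at 1.0, lies to the right of every listed gene shown, and the granular component has 4 of its 5 called genes on the lower side.

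Among 22 other histone chaperones, proteins that like nucleophosmin carry histones, 1 rose and 1 fell, 9.09% of the list, below the 14.2% called among all genes. Anp32a, an acidic chaperone and phosphatase inhibitor, averaged 57.3 ± 7.37 FPKM in Npm1 KO and 30.9 ± 0.905 FPKM in WT (log2 change 0.86, limma adjusted p = 0.0138), and Supt6, an elongation factor, fell by 0.55. Anp32a was still called with the trend removed (0.67, limma adjusted p = 0.0324). The count of 2 became 0 without KO replicate 1, KO replicate 2 or WT replicate 3. It was 7 without KO replicate 3 and 1 without WT replicate 2. Over all genes the count of 1604 became 88, 209, 7, 2805 and 890 in that order.

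Nucleophosmin binds and stabilises ARF, which in turn restrains Mdm2 and so protects p53. Of 22 listed genes of the ARF and p53 pathway 18 were tested, and 1 rose and 2 fell in Npm1 KO, 16.7% of those tested and near the 14.2% of all genes. Cdkn2a, the gene of ARF, was near 0, with 0.0484 FPKM in KO and 0.0150 FPKM in WT on average, and was not tested. Trp53, the p53 gene, averaged 92.1 ± 4.01 FPKM in KO and 85.6 ± 8.40 FPKM in WT, with groups that overlapped. The p53 target Ccng1 rose (log2 change 0.59), whereas the death receptor gene Tnfrsf10b (-1.12) and the stress gene Sesn2 (-0.60) fell, with limma adjusted p from 0.0148 to 0.0422. Tnfrsf10b remained called with the trend removed (-1.12, limma adjusted p = 0.0413). The count of 3 became 0 without KO replicate 1 or WT replicate 3 and 1 without KO replicate 2. Over all genes the count of 1604 became 88, 7 and 209 in that order. Of 13 genes for other reported partners of nucleophosmin, Ncl among them, 2 rose and none fell, 15.4% of the list and near the same 14.2%. The second was Gadd45a, a growth arrest gene, with 19.1 ± 6.33 FPKM in KO and 10.1 ± 2.01 FPKM in WT (limma adjusted p = 0.0441). Myc, whose protein binds nucleophosmin, averaged 73.9 ± 14.7 FPKM in KO and 72.2 ± 21.6 FPKM in WT.

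Npm1, Npm3 and Ncl each had a different pattern over the 6 libraries. Pearson's r of log2(FPKM + 1) over the 6 libraries was -0.43 between Npm1 and Npm3, -0.31 between Npm1 and Ncl and 0.58 between Npm3 and Ncl, given as a description since the libraries share their groups and the trends above. Among 10032 protein-coding genes, those most like Npm1 were Hoxa13, Rrs1 and Dnajb1, with r of 0.992, 0.975 and 0.969. Most like Npm3 were Rpl41, Psmc1 and Cox5b, with r of 0.999, 0.998 and 0.998, and most like Ncl were Unc93a, Dnttip2 and Cep57, with r of 0.999, 0.999 and 0.998. Hoxa13, at 1.59 to 2.07 FPKM, and Unc93a, at 0.523 to 1.81 FPKM, lay near the filter of 1 FPKM. As the highest among 10032 genes over 6 libraries, such r values are high by selection. An r above 0.9 was shared by 27 genes with Npm1, by 972 with Npm3 and by 465 with Ncl, so the pattern of Npm1 was the least common.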

How the data were processed

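Poly-A RNA of CD45-negative MC38 tumour cells was sequenced in 3 Npm1 KO and 3 WT libraries. The authors deposited FPKM values per gene and library; per the submitters' processing notes the tools were HISAT2 2.0.5, CASAVA 1.8, DESeq2 1.20.0 and featureCounts 1.5.0-p3 on GRCm38, with no role given for each. How strand and multi-mapping fragments were handled is not stated in the labels, so overlapping antisense genes cannot be told apart. FPKM times gene length gave whole fragments for 100% of values (tolerance 0.001), 16917778 to 18662688 per library.

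Computed here: log2(FPKM + 1) in limma 3.58.1 (R 4.3.3) with a mean trend, two-sided, for 11287 genes that averaged 1 FPKM or more, Benjamini-Hochberg over all of them. A gene was called at an adjusted p under 0.05. Changes are KO minus WT on that scale, which understates low genes. Single values and ratios were tested by exact permutation. A smooth surface over length and GC content of the longest transcript (mgcv 1.9.3) gave the trend-removed values. Intervals and the floor of 3 fragments cover counting or replicate error only. limma-voom was run on the recovered fragments and called 1721 genes.

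Members and lists were chosen with earlier results of these data known. The text names the members, every called gene of each list (or the 4 with the smallest p), the 3 genes most like each member and the expressed near copies. Trp53, Cdkn2a, Myc and Npm3-ps1 are named as background. Alternatives were another pseudocount, filter, scaling, or variance model, each library left out, and a block on replicate number. The trend from coding sequences, the copies added to Npm1 and the alternatives for Gm6477 were chosen after seeing the data. The fit was tested on simulated data that lacked the differing trends of single libraries. That test therefore does not show how reliable the calls are here.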

Additional observations from a re-analysis of the deposited data

How the results depend on the processing

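Under all alternatives Ncl stayed higher in Npm1 KO (log2 change 0.84 to 1.254), Npm3 higher (0.21 to 0.64) and Npm1 lower (-0.85 to -0.18), and the ratios of Ncl to Npm1 (1.21 to 1.90) and of Npm3 to Npm1 (0.62 to 1.11) kept their direction. The ratio of Gm6477 to Npm1 (-1.56 to -1.23) and Gm6477 itself (-1.83 to -1.12) also stayed lower in Npm1 KO, and limma called Gm6477 in 21 of 24 settings. Ncl was no longer called by limma with no filter on low values (1.0, adjusted p = 0.101), rescaled to TPM (0.90, adjusted p = 0.0536) or with the trend removed together with a replicate block (1.04, adjusted p = 0.0668). The range over libraries left out was 0.86 to 1.254 for Ncl as deposited, with adjusted p of 0.0134 to 0.0854, and 0.94 to 1.19 with the trend removed, with adjusted p of 0.0291 to 0.131 (1.13 without WT replicate 1 and 0.99 without WT replicate 3). Npm1 was called only with the trend of transcripts (-0.74) or of coding sequences (-0.72, limma adjusted p = 0.0189) removed, and its range over libraries left out was -0.47 to -0.18 as deposited and -0.85 to -0.65 with the trend removed. Npm3 was called with quantile normalization (0.42, limma adjusted p = 0.0479), with array weights (0.56, limma adjusted p = 0.00282) and without 1 library, in a range of 0.40 to 0.64 as deposited and 0.21 to 0.27 with the trend removed. Npm2, at the floor, had a mean difference of 0.035 FPKM. Over libraries left out it ranged from -0.00045 FPKM, without WT replicate 2, to 0.076 FPKM. Rescaled to TPM the Npm2 difference was 0.082. The causes were not tested. Rescaling to TPM moved the median of all genes by -0.10 (log2) and the share of called genes that were higher to 26.1%, against 41.6% as deposited.

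Counts of called genes moved most. Over all genes the count was 1604 as deposited, 0 with no filter (4543 genes at an unadjusted p under 0.05 in limma), 961 as TPM, 5454 with array weights, 316 with the trend removed, 1042 with the coding trend removed, 7 to 2805 over libraries left out and 4 to 543 with the trend removed as well (279 without KO replicate 3 and 26 without WT replicate 1). For nucleolar genes it was 12 as deposited, and in that order 0, 7, 32, 4, 7, 0 to 17 and 0 to 5. For histone chaperones it was 2 as deposited, and in that order 0, 1, 11, 1, 1, 0 to 7 and 0 to 1, with 4 under a filter at a mean of 5 FPKM. For the ARF and p53 pathway it was 3 as deposited, 0 with no filter, 7 with array weights, 1 with either trend removed, and 0 to 3 and 0 to 2 over libraries left out.

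No pairing by replicate number was seen. Same-numbered deviations correlated at -0.185, 0.268 and -0.368, and KO replicates 1 and 3 correlated best with another number. Each library also carried its own length and GC trend, so these correlations cannot exclude a pairing. With a replicate block limma called 822 genes, 6 nucleolar genes, 1 histone chaperone and 1 gene of the ARF and p53 pathway. The block left Ncl called (adjusted p = 0.0327) and Npm1 and Npm3 not (limma adjusted p = 0.328 and 0.142). With the block and the trend removed, Gm6477 had a limma adjusted p of 0.0514, and 0 genes were called in limma (2646 at an unadjusted p under 0.05). Ratios were not run under other filters or variance models, and Npm2 got no value where its filter removed it. Rescaling to TPM, median-of-ratios scaling and the replicate block were run but cannot change the size of a ratio. The log2 difference of Ncl to Npm1 stayed at 1.35 in each, so these settings do not test its direction.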
